A study of Mus musculus with 4 samples.

Results

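Cells recognise RNA that is paired over a long stretch through a small set of proteins, and the transcripts of 9 genes of that set were examined for N6-methyladenosine (m6A) in mouse c-Kit+ cells. The genes were Ifih1, Ddx58 and Dhx58, which encode the cytosolic RIG-I-like receptors MDA5, RIG-I and LGP2, their mitochondrial adaptor gene Mavs, the endosomal receptor gene Tlr3, the kinase gene Eif2ak2 (PKR), the oligoadenylate synthetase genes Oas2 and Oas3, and the editing enzyme gene Adar (ADAR1). They were chosen by name for their role, with no peak value in the rule but with earlier results of these data known. They are 9 of the 21951 protein-coding genes of the GENCODE M21 annotation. A peak was given to a gene when its summit, the base with the strongest signal of the peak, lay in an exon of that gene, which held for 13 of 15635 peaks in replicate 1 and for 11 of 14872 in replicate 2.

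The samples were 2 m6A immunoprecipitation (IP) and 2 input libraries of meRIP-seq, in which RNA is broken into fragments, fragments carrying m6A are captured with an antibody, and captured RNA is compared with unselected RNA. All came from foetal liver cells of the C57BL/6 strain enriched for Kit on magnetic beads, and the labels name total RNA for the IP and polyA RNA for the input. According to the methods the cells were of the control genotype Ythdf2CTL, that is Ythdf2 fl/fl, an allele with GFP fused to YTHDF2 and an exon between loxP sites, without Cre, and the replicates were biological. There was thus 1 group, no treatment and no comparison between conditions, and the age of the embryos is not given in the sources used here. Enrichment on beads leaves other cells behind. Among the markers examined, Gata2, Tal1, Runx1 and Cd34 had a peak in both replicates while Myb and Kit itself had none, which does not mean that their RNA was absent. A peak in both replicates was also found for 2 of 5 erythroid, 2 of 5 foetal hepatocyte, 1 of 4 macrophage and 2 of 4 lymphoid marker genes, so the peaks below cannot be assigned to one cell type. In such bulk RNA, fewer cells with a transcript and less transcript per cell cannot be told apart.

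As background, m6A is placed on nuclear RNA by the METTL3-METTL14 complex at DRACH sequences, in which A or G precedes the methylated A, C follows it, the first base is not C and the last is not G, and of which those with GGAC are favoured, and YTHDF2 binds m6A and speeds the decay of the RNA. MDA5 and RIG-I pass the signal to MAVS on mitochondria, TLR3 signals from endosomes through TICAM1, PKR phosphorylates the initiation factor eIF2 alpha, oligoadenylate synthetases make a second messenger from ATP, and ADAR1 edits adenosines in RNA duplexes and thereby keeps the cell's own RNA from being sensed.

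Of the 9 genes, 6 had a summit in an exon in replicate 1 and the same 6 in replicate 2, namely Ifih1, Ddx58, Dhx58, Mavs, Eif2ak2 and Adar. Over all protein-coding genes the corresponding share was 34.4% in replicate 1, 33.5% in replicate 2, 30.9% in both replicates and 37.1% in at least 1. The 3 RIG-I-like receptor genes each had 1 peak per replicate, Mavs had 2 and 1, Eif2ak2 had 4 and 4, and Adar had 4 and 3. Tlr3, Oas2 and Oas3 had no peak anywhere in the gene in either replicate. The background shares include genes that are silent in these cells, and the RNA level of the genes was not measured here.

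**Figure D1:**
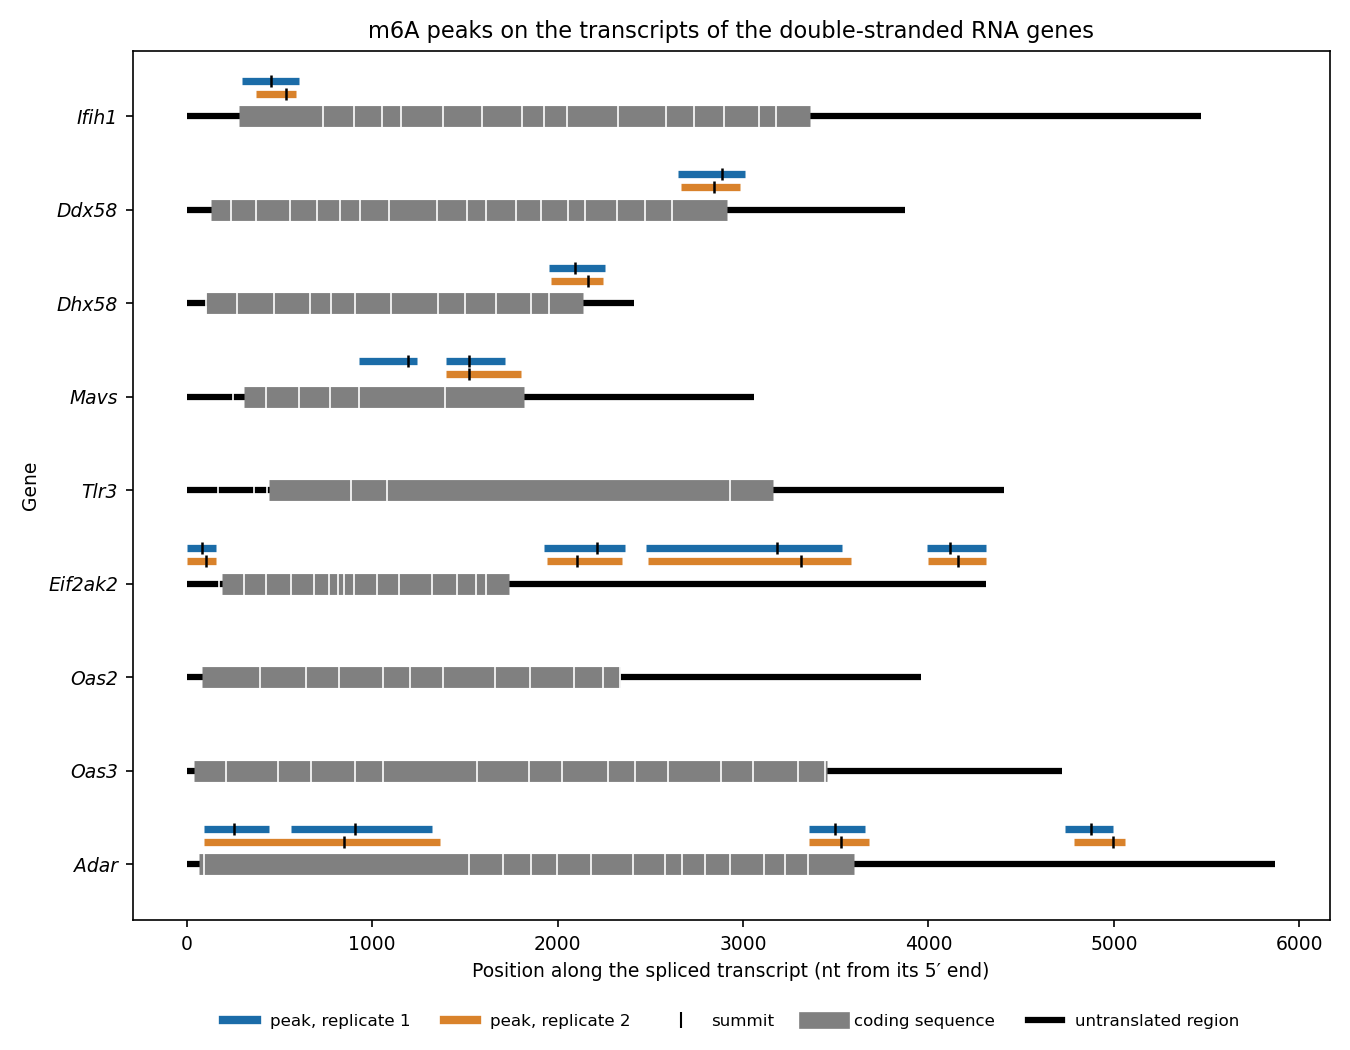
Peaks on the spliced transcripts of the 9 genes, with the position in nt from the 5′ end on the x axis and a gene per row. Blue and orange bars are the exonic parts of the peaks of replicates 1 and 2, black ticks are summits, thick grey bars are coding sequence, thin black lines are untranslated regions and white ticks are exon junctions; Ddx58 and Dhx58 carry their peak at the stop codon, Ifih1 in exon 1, and Tlr3, Oas2 and Oas3 carry none.

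The sequences at the summits of the 3 receptor genes are shown because each holds a GGAC that lay within 50 nt of the summit in both replicates. They are the coding bases within 50 nt of the replicate 1 summit, from GRCm38, all on the minus strand and written 5′ to 3′ with GGAC in capitals. The Ifih1 window is chr2:62645710-62645810 in exon 1, the Ddx58 window is chr4:40205810-40205884 in exon 18, and the Dhx58 window is chr11:100695157-100695253 in exon 13, and the latter pair end with the stop codon.
Ifih1: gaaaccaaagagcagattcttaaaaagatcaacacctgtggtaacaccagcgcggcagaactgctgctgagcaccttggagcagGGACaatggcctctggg
Ddx58: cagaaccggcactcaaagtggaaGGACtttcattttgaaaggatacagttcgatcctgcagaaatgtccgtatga
Dhx58: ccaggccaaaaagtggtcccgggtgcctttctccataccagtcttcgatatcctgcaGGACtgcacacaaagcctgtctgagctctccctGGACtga

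Ifih1, whose product MDA5 binds long RNA duplexes, had its peak in exon 1 of 16, an exon of 734 nt that holds the 5′ UTR and the first part of the coding sequence. The peak spanned chr2:62645607-62645915 in replicate 1, with a fold enrichment of 5.22 and a −log10 q of 10.5, and chr2:62645623-62645837 in replicate 2, with 3.13 and 3.26. Fold enrichment is the ratio of IP to background signal at the summit, and q is the false discovery rate of the peak caller. The summit fell on codon 57 of 1025 in replicate 1 and on codon 84 in replicate 2, 81 nt apart, and the shared GGAC at chr2:62645724 lay between the summits. The peak rested on 27 and 22 IP reads (95% Poisson intervals 17.8 to 39.3 and 13.8 to 33.3) over a background of 5.0 and 6.0 reads. The fold enrichment of replicate 2 was the lower of the pair by a factor of 1.66. The intervals of the IP reads overlapped, but they leave out the error of the background. The replicate 2 peak was the member peak with the smallest −log10 q. At a minimum −log10 q of 5, Ifih1 kept its peak in replicate 1 alone. A second Ifih1 peak, called in replicate 2 only at chr2:62639379-62639650, had its summit in the intron 15 bp from exon 2, and 120 of its 272 bp lay in that exon. It had a fold enrichment of 9.61 on 13 IP reads over a background of 0.391, and is not counted among the exonic peaks. This background was at the lowest level found among replicate 2 peaks, so the ratio rests on the IP reads.

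Ddx58, whose product RIG-I recognises the triphosphate end of short duplexes, had its peak at the end of the coding sequence, in exon 18 of 18. Fold enrichment was 7.19 in replicate 1 (chr4:40205713-40206074, −log10 q 11.6) and 7.38 in replicate 2 (chr4:40205739-40206060, −log10 q 9.63). The values of the replicates differed by 0.04 on the log2 scale, although only 20 and 16 IP reads over a background of 2.2 and 1.2 lay behind them. These backgrounds are not whole numbers and so are not counts of reads at the summit. The 95% intervals of these IP reads were 12.2 to 30.9 and 9.15 to 26.0. The summits were 22 and 65 nt before the stop codon, at codons 919 and 905 of 926. The only GGAC within 50 nt, GGACT with its A at chr4:40205859, was 25 nt before the summit of replicate 1 and 18 nt after that of replicate 2.

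Dhx58 encodes LGP2, a receptor of the same family without the signalling domains, and its peak also sat at the stop codon, in exon 13 of 13. Replicate 1 had a fold enrichment of 10.2 (chr11:100695041-100695367, −log10 q 20.1) and replicate 2 of 4.53 (chr11:100695050-100695331, −log10 q 5.73). The replicate 1 value was above 96.1% of exonic peaks in that replicate, while the replicate 2 value was above 52.2% of those in its own. This was a 2.25-fold difference, and 2.33% of all exonic peak pairs differed by as much or more. The IP reads were 27 and 18 (95% intervals 17.8 to 39.3 and 10.7 to 28.4) and the background 2.0 and 3.0 reads. The intervals of the IP reads overlapped, but they leave out the error of the background. The summit of replicate 1 lay 44 nt before the stop codon and that of replicate 2 was 27 nt past its first base. The GGACT common to both has its A at chr11:100695161, 2 nt before the stop codon.

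For Mavs, the adaptor downstream of RIG-I and MDA5, the window at the summit is given because both replicates placed the summit on the same base, chr2:131246492 on the plus strand, within a cluster of 3 GGAC. The window is chr2:131246442-131246542 in the coding part of exon 7.
Mavs: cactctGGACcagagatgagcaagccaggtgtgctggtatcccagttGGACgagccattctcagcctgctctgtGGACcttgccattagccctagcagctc
The middle GGAC has its A 1 nt before the summit, but it is followed by G and is therefore no DRACH, whereas the outer pair, 42 nt before and 26 nt after the summit, are GGACC and match DRACH.

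This exon 7 peak of Mavs had a fold enrichment of 3.48 in replicate 1 (chr2:131246217-131246686, −log10 q 27.7) and 3.16 in replicate 2 (chr2:131246224-131246770, −log10 q 22.5). It rested on 124 and 122 IP reads over 40.0 and 36 background reads, and the replicate values differed by 0.14 on the log2 scale. The summit was at codon 405 of 503, 295 nt before the stop codon. A weaker peak in exon 6 (chr2:131245173-131245517, fold enrichment 1.90, −log10 q 3.58, 64 IP reads over 38.0) was called in replicate 1 only. It is the 1 member peak of 24 that no peak of the other replicate overlapped, its fold enrichment exceeded 4.23% of exonic peaks, and no GGAC lay within 50 nt of its summit.

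**Figure D2:**
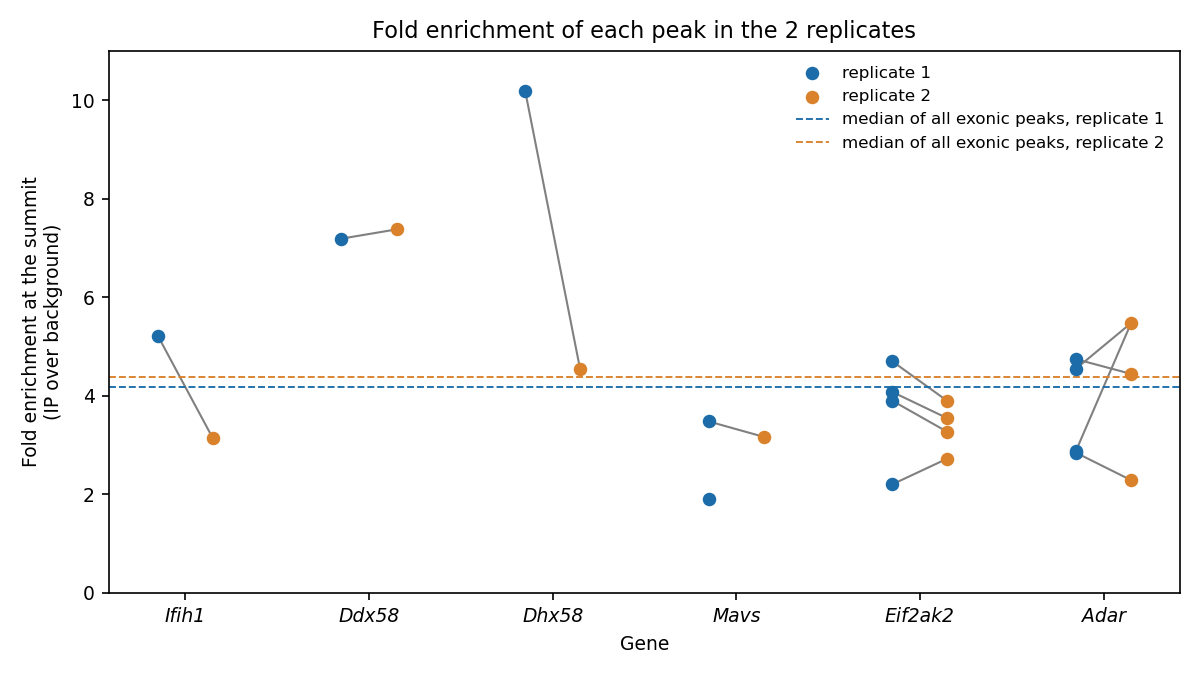
Fold enrichment at the summit (y axis) of each of the 13 peaks of replicate 1 (blue) and 11 of replicate 2 (orange), by gene (x axis). Grey lines join overlapping peaks and dashed lines mark the medians of all exonic peaks, 4.18 and 4.39; Ddx58 lies above both lines in both replicates, Mavs lies below them, and Dhx58 drops from 10.2 to 4.53.

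Eif2ak2 encodes PKR, the kinase that halts translation when it binds duplex RNA, and 6 of its 8 peaks lay in its 3′ UTR, which is part of an exon 16 of 2698 nt. Unlike in Ddx58 and Dhx58, no summit lay within 200 nt of the stop codon. The strongest peak by q spanned chr17:78853343-78854402 in replicate 1, with a fold enrichment of 4.70, a −log10 q of 43.5 and 135 IP reads. In replicate 2 it spanned chr17:78853296-78854390, with 3.89, 33.8 and 138 reads. The summits were 1448 and 1579 nt past the stop codon, with no GGAC within 50 nt of either and 3 other DRACH at each.

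A second 3′ UTR peak of Eif2ak2 lay nearer the coding sequence, with summits 476 and 370 nt past the stop codon. It had a fold enrichment of 2.20 in replicate 1 (chr17:78854516-78854948) and 2.73 in replicate 2 (chr17:78854529-78854935), with 82 IP reads in each. The replicate 2 summit bordered a run of AGACA repeats, 11 of which lay within 50 nt. AGACA fits DRACH, and the summits of this peak were 106 nt apart. Reads from a repeat can match several places, and their part in this peak was not tested.

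The third peak of the 3′ UTR lay at its end, with fold enrichments of 3.90 (chr17:78851969-78852883) and 3.26 (chr17:78851967-78852882) on 71 IP reads in each replicate and summits 43 nt apart. Of its 915 and 916 bp, 595 and 597 ran past the end of the gene in GENCODE M21, yet all of the peak lay within the RefSeq gene, which ends 2060 bp further on. The 3 sites shown are, in order, the GGAC at this summit (chr17:78852747-78852772), the first 30 bases of the AGACA run (chr17:78854739-78854768) and the GGAC of the 5′ UTR peak described next (chr17:78882507-78882532), all on the minus strand with GGAC in capitals.
Eif2ak2 3′ end: aaagcactttGGACctttgcatggag
Eif2ak2 repeat: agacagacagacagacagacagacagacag
Eif2ak2 5′ UTR: ggccaggcccGGACttccatgggcag
The GGAC at the 3′ end had its A 2 nt after the replicate 1 summit and 41 nt before that of replicate 2.

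Eif2ak2 also had a peak in exon 1, in the 5′ UTR, with fold enrichments of 4.08 (chr17:78882414-78882642, 28 IP reads) and 3.54 (chr17:78882416-78882616, 25 reads). Its −log10 q was 7.89 and 4.93, and the summits were 19 nt apart, 108 and 89 nt before the start codon. The lincRNA gene Gm26637 has an exon on the opposite strand here and the peak lists carry no strand, so this peak cannot be given to one of the genes. The transcription start of the gene also lies within the peak, 69 and 43 bp of which fall upstream of it.

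Adar encodes the enzyme that turns adenosine into inosine in duplex RNA, as a long interferon-inducible protein (p150) and a shorter one (p110) that starts at an internal methionine. Its peaks clustered at the front of the coding sequence in exon 2, an internal exon of 1432 nt, and around the stop codon in exon 15. The windows at the strongest exon 2 summit of replicate 1 (chr3:89735609-89735709, plus strand) and at the exon 15 summit (chr3:89751019-89751119) are shown because neither contains a GGAC, unlike those of the receptor genes.
Adar exon 2: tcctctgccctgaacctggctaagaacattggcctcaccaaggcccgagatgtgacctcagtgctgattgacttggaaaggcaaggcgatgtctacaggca
Adar exon 15: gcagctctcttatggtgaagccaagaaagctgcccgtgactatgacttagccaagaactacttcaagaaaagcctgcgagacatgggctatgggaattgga
Each holds 4 DRACH, for example TGACC 4 nt after the exon 2 summit and TGACT 6 nt before the exon 15 summit.

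In exon 2, replicate 1 had 2 Adar peaks, at chr3:89734723-89735194 with a fold enrichment of 2.88 (−log10 q 15.0, 90 IP reads) and at chr3:89735313-89736071 with 4.55 (−log10 q 43.8, 141 reads). Replicate 2 had 1 peak across both, chr3:89734710-89736113, with 5.47 (−log10 q 48.6, 137 reads), the largest −log10 q among the member peaks. Its summit was 61 nt from that of the second replicate 1 peak, so the strongest signal was near the same place although the number of peaks differed. In the annotation the start codon of a shorter isoform is codon 249 of the long one. The stronger summits lay 101 nt (replicate 1) and 40 nt (replicate 2) past this start codon, and the weaker replicate 1 summit was 193 nt past the start codon of the long form. The stronger summits thus lay in coding sequence common to the long form and this shorter one, and the weaker one 551 nt before the shorter isoform's start codon. Another pair of annotated transcripts start at codon 519, and the stronger summits lay 709 and 770 nt before that codon, outside their coding sequence.

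The exon 15 peak of Adar had a fold enrichment of 4.74 in replicate 1 (chr3:89750870-89751232, −log10 q 41.7, 128 IP reads) and 4.44 in replicate 2 (chr3:89750899-89751256, −log10 q 35.4, 125 reads). The summits were 104 and 69 nt before the stop codon, at codons 1144 and 1156 of 1178. A weaker 3′ UTR peak, 2.84 (chr3:89752311-89752572, 53 reads) and 2.29 (chr3:89752359-89752634, 47 reads), lay in an exon shared with the oppositely oriented gene Chrnb2, a neuronal acetylcholine receptor subunit, and could belong to either gene. Of the 7 Adar summits, 1 had a GGAC within 50 nt, that of the weaker exon 2 peak.

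The remaining 3 genes had no peak. Tlr3 encodes the endosomal receptor for duplex RNA, and Oas2 and Oas3 encode oligoadenylate synthetases, which bind duplex RNA in the cytosol. The chosen transcripts of Tlr3, Oas2 and Oas3 hold 12, 15 and 27 GGAC, or 2.72, 3.79 and 5.72 per kb, against 2.07 (Ddx58) to 4.98 (Dhx58) per kb in the 6 genes with a peak and a median of 4.0 over all protein-coding genes, so the ranges of genes with and without a peak overlapped. Tlr3 has an internal exon of 1853 nt, longer than exon 2 of Adar. The peak lists hold no values for genes without a peak, and such a gene may lack m6A or may lack reads. These cannot be told apart here.

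When the 6 genes were ordered by the fold enrichment of their strongest peak by q (mean ± SD of the replicates, n = 2), Dhx58 (7.36 ± 4.0) and Ddx58 (7.28 ± 0.13) came first, and their replicate ranges overlapped. Adar (5.01 ± 0.65) followed, with both replicates below those of Ddx58. Eif2ak2 (4.29 ± 0.57), Ifih1 (4.17 ± 1.47) and Mavs (3.32 ± 0.22) came next, and each overlapped its neighbour in the order, so among neighbours only Ddx58 and Adar had replicate ranges that did not overlap. These ranges of 2 values leave out counting error, and Ddx58 rested on 20 and 16 IP reads, so this gap does not establish a difference. Where any overlap of a peak with an exon counted, the intronic peak of replicate 2 entered and Ifih1 moved from 4.17 to 7.41, ahead of Dhx58 and Ddx58. That intronic peak had 13 IP reads over a background at the lowest level of replicate 2, 0.391. The ratio carries 1 added to each of its terms and is pulled towards 1 where reads are few, so that order is one of deposited values and not of methylation per molecule.

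The reads behind the peaks fell into 2 ranges. The receptor genes had 16 to 27 IP reads at each summit over 1.2 to 6.0 background reads, and the Eif2ak2 5′ UTR peak was similar. The peaks of Mavs, Adar and the Eif2ak2 3′ UTR had 47 to 141 IP reads over 19.0 to 42.0. The exonic peaks as a whole had a median of 68 IP reads in replicate 1 and 66 in replicate 2. Statements on the receptor genes therefore rest on fewer reads, and these counts include counting error only, since copies made by PCR are not marked.

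**Figure D3:**
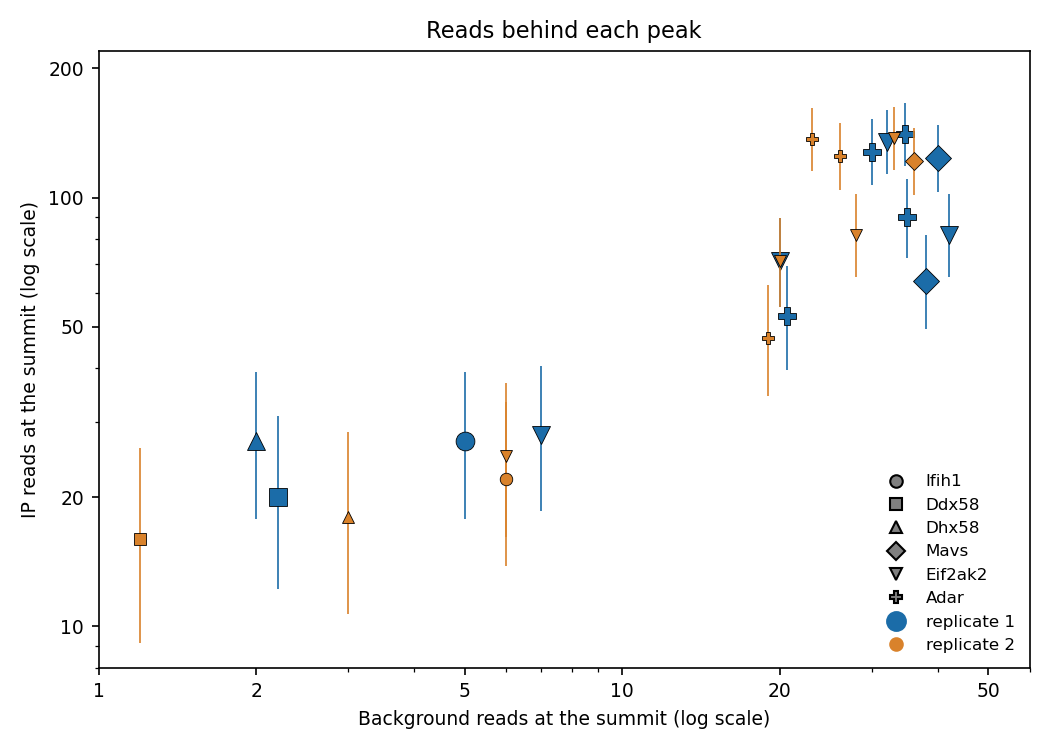
IP reads (y axis, log scale, with 95% Poisson intervals) against background reads (x axis, log scale) at the summit of each peak, both inferred from fold enrichment and p-value. The background is not a whole number at every peak. Symbols mark genes, with replicate 1 in blue with larger symbols and replicate 2 in orange. The receptor genes sit at 16 to 27 IP reads and at most 6.0 background reads, and Mavs, Adar and the Eif2ak2 3′ UTR at 47 or more.

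By median, the peaks of these genes were near the level of all exonic peaks in replicate 1 and lower in replicate 2. Their median fold enrichment was 4.08 in replicate 1 and 3.54 in replicate 2, against 4.18 and 4.39 over all exonic peaks, and the median −log10 q was 15.0 and 11.6 against 16.1 and 15.8. In replicate 1, 12 of 13 peaks (92.3%, exact 95% interval 64.0 to 99.8) overlapped a peak of the other replicate. In replicate 2, 11 of 11 did (interval 71.5 to 100). Over all exonic peaks these shares were 84.2% and 86.8%. The intervals treat peaks as independent, although several come from the same gene and each overlap is counted in both replicates. Among 10 one-to-one pairs, 9 were within 2-fold of each other, with Dhx58 the exception, against 95.7% of 9676 such pairs over all genes. The median distance between paired summits was 57 nt for these genes and 16 nt for all.

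**Figure D4:**
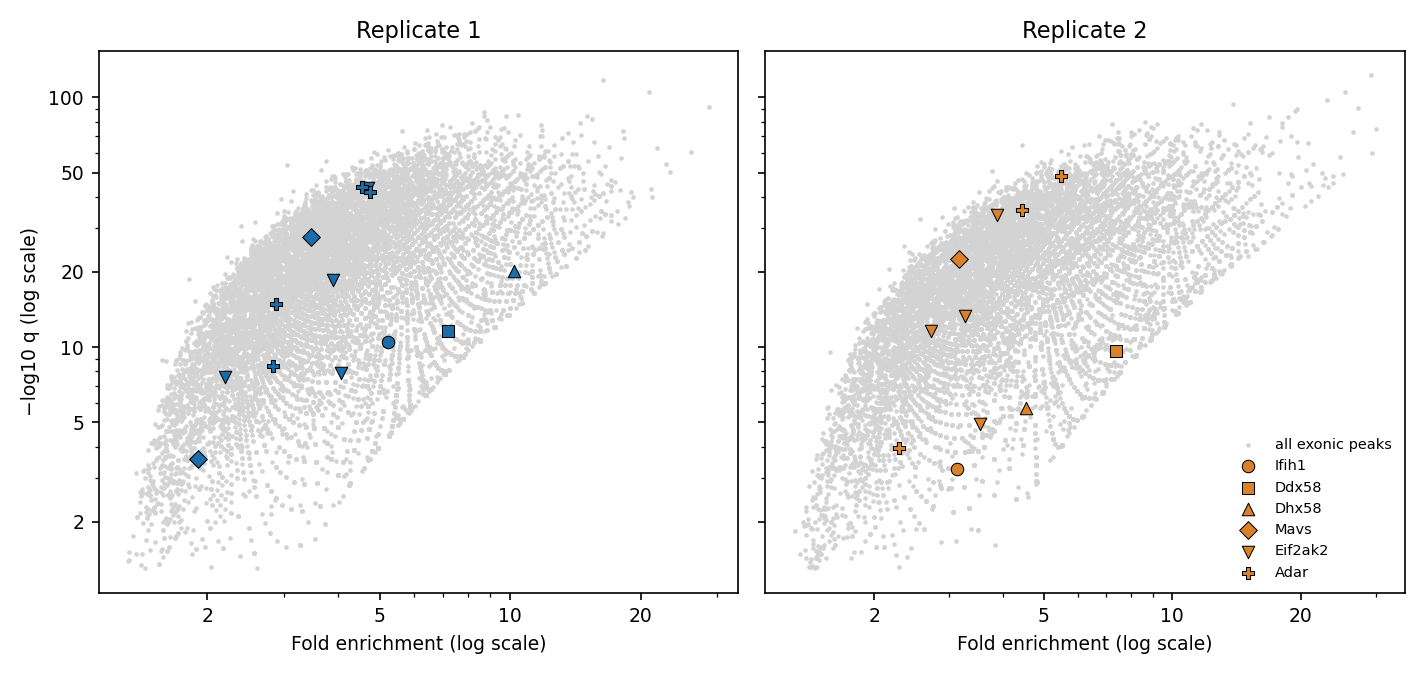
Fold enrichment (x axis, log scale) against −log10 q (y axis, log scale) of all exonic peaks (grey points) with the peaks of the 6 genes as coloured symbols, replicate 1 on the left and replicate 2 on the right. The Mavs exon 7 peak and the strongest Adar and Eif2ak2 peaks lie near the upper left edge, where many reads give a modest ratio. Ddx58 lies towards the lower right in both replicates, where few reads give a high ratio. Dhx58 lies to the right in replicate 1 (fold enrichment 10.2, −log10 q 20.1) and near the median fold in replicate 2 (4.53 against 4.39).

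The position of the summits along the transcript was described for the 20 that lay in exons of 1 gene only. Within 200 nt of the stop codon lay 3 of 11 summits in replicate 1 (27.3%) and 3 of 9 in replicate 2 (33.3%), those of Ddx58, Dhx58 and Adar, while the share over all such summits was 30.7% and 29.8%. In the 3′ UTR beyond that window lay 3 in each replicate, all of Eif2ak2 (27.3% and 33.3%), against 17.2% and 17.5% over all such summits. Of all 24 member summits, 16 lay in a last exon, 4 in a first exon and 4 in an internal exon of at least 400 nt (Mavs exon 6 and Adar exon 2), and none in a shorter internal exon. Of the summits in exons of 1 gene only, 7 of 11 in replicate 1 (63.6%) and 7 of 9 in replicate 2 (77.8%) lay in a last exon. A first exon held 1 of 11 (9.09%) and 1 of 9 (11.1%), and a long internal exon 3 of 11 (27.3%) and 1 of 9 (11.1%). Over all genes 61.6% and 61.1% of the placed summits lay in a last exon, 12.5% and 13.2% in a first exon and 20.7% and 20.6% in an internal exon of at least 400 nt. Shorter internal exons held 5.23% and 5.15% of the summits of all genes, and 24 summits are too few to set a count of 0 against that share.

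A GGAC lay within 50 nt on either side on the sense strand at 7 of 11 of these summits in replicate 1 (63.6%, exact 95% interval 30.8 to 89.1) and 5 of 9 in replicate 2 (55.6%, 21.2 to 86.3). All placed summits had it in 56.1% and 56.0%, which lie within these wide intervals. Counting summits in exons of another gene too, it ranged from 1 of 7 for Adar to 2 of 2 for Ifih1, Ddx58 and Dhx58. All 20 member summits had a DRACH, as did 93.3% of all summits in each replicate. Counting the 2 peaks in exons of overlapping genes too, 8 GGAC lay within 50 nt of the summit in both replicates, in 5 genes. A motif near a summit is a description of the sequence and not a mapped m6A site.

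The genes that work with these sensors were examined from lists of names, in the order of the pathway. Across lists, the strongest peak had a median fold enrichment between 3.01 and 6.18, beside 4.65 for the 6 genes above and 4.74 for all 6780 genes with a summit in both replicates. Of the 12 cofactors of RIG-I-like receptors and other RNA helicase sensors, 8 (66.7%) had a summit in both replicates. The share over all protein-coding genes was 30.9%. Nlrx1, a mitochondrial protein that binds MAVS, had a fold enrichment of 10.3 in replicate 1 and 11.3 in replicate 2. Rnf135, a ubiquitin ligase for RIG-I, had 13.2 and 6.27. The helicase gene Dhx36 had 5.03 and 3.81. Rnf125 had a summit in replicate 1 only (2.93, 25 IP reads) and Prkra, whose product PACT activates PKR, in replicate 2 only (15.7, 22 IP reads). Ddx60 and Dhx9 had none.

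Downstream of Mavs and Tlr3, 9 of 13 kinase and adaptor genes (69.2%) had a summit in both replicates, beside 30.9% of all protein-coding genes. The other 4, Unc93b1, Tbk1, Irf3 and Irf7, had none. Ticam1, the adaptor of TLR3, had fold enrichments of 7.09 and 6.89 where Tlr3 itself had no peak. Tradd, an adaptor shared with the TNF receptor, had 6.28 and 5.39, and Ikbke, a kinase of IRF3, had 6.88 and 4.5.

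In the arm of the eIF2 alpha kinases, which PKR belongs to, 5 of 8 genes (62.5%) had a summit in both replicates. Over all protein-coding genes it was 30.9%. Eif2ak3, the kinase of the unfolded protein response, had 9.59 and 10.8, above the values of Eif2ak2 in each replicate. Ppp1r15a, the phosphatase subunit that reverses eIF2 alpha phosphorylation, had 5.78 and 5.87, and the eIF2 alpha gene Eif2s1 had 4.78 and 5.32. Dnajc3 (3.19) and Atf4 (3.81) had a summit in replicate 2 only.

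Of the other 10 oligoadenylate synthetase genes, 2 had a summit in both replicates (20%, exact 95% interval 2.52 to 55.6). The 30.9% of all protein-coding genes lies within this interval. Oas1b had 6.38 and 5.51 and Oasl2 had 4.73 and 3.82, on 7 to 12 reads, and Oasl1 had a summit in replicate 1 only (4.80, 8 reads). Oas1 genes are near copies of each other, and reads could be shared between them. The synthetase genes had either no peak or peaks of 7 to 12 reads.

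Of 11 other proteins that bind double-stranded or Z-form RNA, 6 (54.5%) had a summit in both replicates, beside 30.9% of all protein-coding genes. Strbp (10.1 and 10.5), Dicer1 (3.88 and 5.37) and Stau1 (2.80 and 3.53) were the highest. Zbp1, Adarb1 and Adarb2 were among the 5 with none. RIG-I, MDA5 and LGP2 belong to the DExD/H helicases, and of 51 other DEAD and DEAH box genes 35 had a summit in both replicates, led by Ddx17 (6.47 and 5.93), Dhx57 (5.23 and 6.43) and Ddx54 (3.45 and 7.67). The helicase genes Ddx60, Dhx9, Dhx33 and Dhx36 are counted here and among the cofactors above. Ddx39b (2.30) and Ddx3x (1.68) had one in replicate 1 only. The 68.6% of helicase genes is close to the 66.7% of the 9 genes studied, and both stand beside 30.9% of all protein-coding genes.

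Interferon-inducible GTPases share their induction with the sensors. Of these GTPases, 6 of 17 (35.3%) had a summit in both replicates, beside 30.9% of all protein-coding genes. Irgm2 (9.59 and 7.45), Ifi47 (8.64 and 6.31) and Gbp7 (5.56 and 7.68) were the highest, while Tgtp1 (8.51) and Tgtp2 (7.64), near copies of each other, had a summit in replicate 1 only. Mx1 and Mx2 had none. No test between lists was made, since the lists were drawn up by function and RNA levels are not part of the data analysed.

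**Figure D5:**
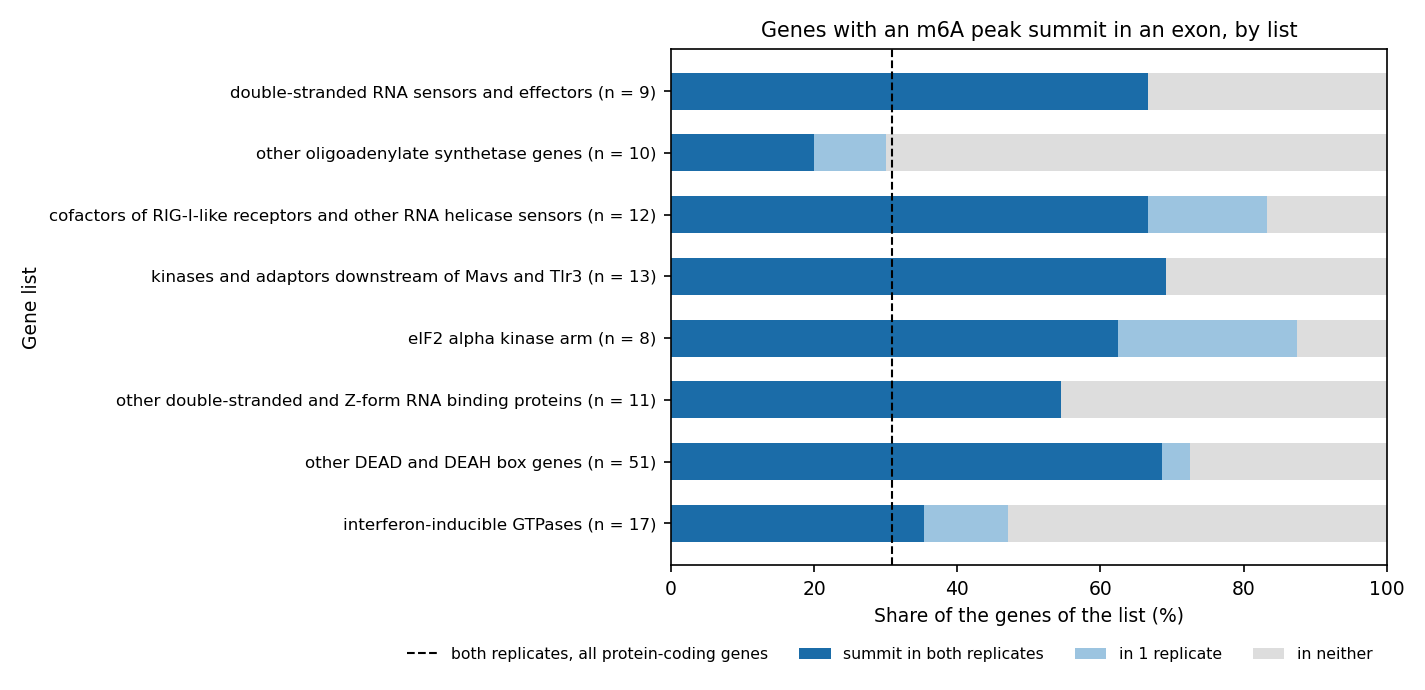
Share of the genes of each list (x axis, %) with a summit in an exon in both replicates (dark blue), in 1 replicate (light blue) or in neither (grey), with the number of genes in brackets. The dashed line is the share of all protein-coding genes with a summit in both, 30.9%. The sensors stand at 66.7%, the other oligoadenylate synthetase genes at 20% and the GTPases at 35.3%. Ddx60, Dhx9, Dhx33 and Dhx36 are in both the cofactor list and the DEAD and DEAH box list.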

How the data were processed

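The peaks are those of the authors. Per the submitters' processing notes and the methods, reads were aligned to GRCm38 (mm10) with HISAT2 and peaks were called for each replicate with MACS2 2.1.1.20160309 without model building. The control library, effective genome size and threshold are not given in the sources used here. Input libraries were not analysed here. The deposited lists give for each peak a fold enrichment, which is a ratio, a −log10 p-value and −log10 q-value, a score that is a whole-number multiple of −log10 q, and an offset in bp that locates the summit within the peak. The score was not used. Library depth is not in these files. IP and background reads at each summit were computed from the fold and p-value that the authors deposited, which follow from both under the formulas of MACS2. A whole number of IP reads matched 100% of peaks in each replicate within 0.001 in −log10 p. The 2950 and 2931 simulated peaks were built with the same formulas. Their 100% recovery therefore checks the calculation only, not the formulas or the background of real peaks. The inferred background was a whole number of control reads at 73.4% and 72.7% of peaks. At the others it was not a count of whole reads at the summit. In the ratio, each background read of replicate 1 counted as 0.874 and each IP read of replicate 2 as 0.952.

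Summits were matched to exons of the GENCODE M21 basic set on GRCm38, and positions along transcripts refer to the protein-coding transcript with the longest coding sequence. A summit within 200 nt of a start or stop codon was placed there, the stop codon first. Motifs were sought along spliced transcripts, sense strand only. Replicate peaks were paired when they overlapped by at least 1 bp. Shares have exact Clopper-Pearson 95% intervals and reads have exact Poisson intervals, both of counting error only. Intervals of peak and summit shares treat peaks as independent, although a gene can hold several. With 2 replicates of 1 group no test was made. The members and gene lists were chosen with earlier results of these data known. One gene was left out of the counts of its list and is not reported here. All 9 members are described with every peak, and each list is represented by up to 3 genes with the highest mean fold enrichment among those with a summit in both replicates, plus any gene with a summit in 1 replicate only; genes of a list with no summit that are named were chosen after their values were seen. Python 3.11.15 with pandas 2.3.3, scipy 1.17.1, pysam 0.24.0 and matplotlib 3.10.9 was used. Alternatives changed the minimum q and fold, the annotation, the overlap rule, the motif and stop codon windows and the replicates used.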

Additional observations from a re-analysis of the deposited data

How the results depend on the processing

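The same 6 genes had a summit in both replicates with all transcripts of the annotation, with any overlap of a peak with an exon, without summits in exons of another gene and at a minimum −log10 q of 3. At a −log10 q of 5 there were 5, as Ifih1 was lost from replicate 2, and at a fold enrichment of 4 there were 3 (Ddx58, Dhx58 and Adar). The share of member peaks shared between replicates (95.8%) became 85% at a −log10 q of 5, 72.7% at a fold of 4 and 66.7% when summits within 100 bp were required. The median fold enrichment (3.81) became 4.24 and 4.87 under these minimums, which remove low values by construction, and 4.22 without summits in exons of another gene. The share of summits with GGAC (60%) became 50% at a fold of 4, and 30% and 80% within 25 and 100 nt, and the share at the stop codon (30%) became 25% and 45% with windows of 100 and 400 nt. With 1 replicate left out in turn, members with a summit stayed at 6, shared peaks were 92.3% to 100%, the median fold 3.54 to 4.08, GGAC 55.6% to 63.6% and stop codon summits 27.3% to 33.3%. The strongest Ifih1 peak moved from 4.17 to 7.41 if any overlap with an exon counted, because the intronic peak of replicate 2 then entered. That peak had 13 IP reads over a background at the lowest level of replicate 2. No paired analysis was possible because there is 1 group of IP samples and no comparison. Depth at the receptor genes (16 to 27 IP reads) limits what can be said of their heights.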
